A study of Mus musculus with 12 samples.

Results

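Microglia decide in part how a T cell that meets them responds, through surface proteins that add a second signal to antigen recognition. Transcripts of 8 genes of such proteins were followed here: the CD28-family ligands Cd80, Cd86 and Icosl, the checkpoint ligands Cd274 (PD-L1), Pdcd1lg2 (PD-L2) and Cd276 (B7-H3), the activating receptor Cd40 and the maturation marker Cd83. The genes were taken by symbol, each from the probe set with the highest mean among those that carry that symbol alone, and all 8 were found among the 19938 genes measured. Cd80 had a second probe set, and the other 7 genes had 1 each. The cells were primary microglia (the brain's own macrophages) from C57BL/6J mouse pups on postnatal day 7. They were selected on beads against CD11b, a myeloid surface integrin, and cultured for 3 days. Cultures then received, for 6 h, oligomeric Aβ42 (10 µM) with the agonist's vehicle (0.001% ethanol), AE1-329 (100 nM) with the peptide's vehicle (0.4% DMSO), both agents, or both vehicles. Aβ42 is the peptide that builds up in the plaques of Alzheimer's disease, and AE1-329 is an agonist of EP4, a receptor of prostaglandin E2 that raises cAMP. Each treatment was applied to cells of 3 litters, which gave 4 groups of 3 arrays and 12 in all. The design asks what the peptide changes, what the agonist changes, and whether the agonist alters the response to the peptide.

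CD80 and CD86 on an antigen-presenting cell bind CD28 on T cells, which promotes activation, and CTLA-4, which restrains it. ICOS ligand engages ICOS on T cells that are already activated, PD-L1 and PD-L2 engage the inhibitory receptor PD-1, and B7-H3 has been described with both stimulatory and inhibitory effects. CD40 works in the other direction: CD40 ligand on helper T cells triggers it, NF-kB signalling follows, and the costimulatory ligands are among its classical targets. CD83 is a membrane protein of mature antigen-presenting cells that keeps MHC class II and CD86 on the surface by opposing the ubiquitin ligase MARCH1. Resting microglia carry little of most of these proteins and acquire them during inflammation.

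The promoter sequences of 4 members are shown because these genes responded in different ways. Icosl and Cd274 rose with Aβ42, Pdcd1lg2, which lies beside Cd274 on chromosome 19 with no other protein-coding gene between them, passed in no comparison, and Cd80 rose with both agents. Each is the 250 bases before the RefSeq transcription start on assembly GRCm38.p6, plus strand, 5′ to 3′, with kappaB matches in capitals. Windows were on hand for 5 of the 8 members, and Cd40, Cd83 and Cd86 had none in the table used.
Icosl, chr10:78069118-78069367: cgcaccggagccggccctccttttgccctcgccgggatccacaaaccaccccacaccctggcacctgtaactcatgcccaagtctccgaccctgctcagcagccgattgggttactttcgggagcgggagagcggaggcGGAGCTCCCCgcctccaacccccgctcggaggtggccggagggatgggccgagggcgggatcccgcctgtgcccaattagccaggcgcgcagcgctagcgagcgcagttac
Pdcd1lg2, chr19:29410669-29410918: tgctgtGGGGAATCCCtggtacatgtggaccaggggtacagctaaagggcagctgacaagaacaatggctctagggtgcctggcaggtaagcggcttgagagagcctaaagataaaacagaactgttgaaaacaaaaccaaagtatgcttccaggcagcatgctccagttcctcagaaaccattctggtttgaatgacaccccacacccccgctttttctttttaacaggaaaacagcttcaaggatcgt
Cd274, chr19:29367188-29367437: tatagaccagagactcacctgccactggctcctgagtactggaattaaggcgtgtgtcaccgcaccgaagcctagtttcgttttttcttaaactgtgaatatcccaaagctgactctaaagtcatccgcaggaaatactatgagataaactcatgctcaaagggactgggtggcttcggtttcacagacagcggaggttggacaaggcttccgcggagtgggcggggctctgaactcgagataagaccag
Cd80, chr16:38458683-38458932: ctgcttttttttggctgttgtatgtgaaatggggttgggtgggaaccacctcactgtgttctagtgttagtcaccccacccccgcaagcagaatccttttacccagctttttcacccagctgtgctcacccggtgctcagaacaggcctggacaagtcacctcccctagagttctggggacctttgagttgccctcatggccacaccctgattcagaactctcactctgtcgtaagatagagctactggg

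Motifs were searched on both strands of the 300-base windows that run to 50 bases after the start. The kappaB consensus, the binding motif of NF-kB, occurred once each in Icosl, at -111 to -102 on the minus strand, and in Pdcd1lg2, at -244 to -235 on the plus strand, with the start as position 0. It was present in 8.46% of all 32851 windows. The interferon motifs, GAAA repeated after any 2 bases (the ISRE core, 3.44% of windows) and TTCNNNGAA (8.30%), the cAMP response element TGACGTCA (1.79%) and the TGACG inside it (20.8%) had no match in any of the 5 members' windows. A match of letters is no evidence of binding, and a missing match says nothing about sites outside the window. The kappaB match was found in Icosl, which rose 6.01-fold with Aβ42, and in Pdcd1lg2, which did not pass and whose probe set was dim. The windows of Cd274 and Cd80, which rose with Aβ42, and of Cd276, which did not pass with it, held none. Whether the motif bears on the response was not tested.

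All values are log2 expression values, so a difference of 1 is a 2-fold change, and each change is given as the difference of 2 group means ± its standard error from limma fitted to all 12 arrays. Array medians, taken over all 35556 probe sets, ran from 6.97 to 7.05. The median of the mean levels of the 19938 genes was higher, at 7.41. The median standard deviation between replicates was 0.109 in vehicle cultures and 0.0628 to 0.0660 in the other groups. The mean levels of 11 of 11 microglia and myeloid markers, among them Cx3cr1, P2ry12, Tmem119 and Csf1r, lay above the highest array median. Their mean per array ran from 10.49 to 10.72, and single markers moved in both directions. With Aβ42 alone 4 of the 11 rose, led by Spi1 (0.54 ± 0.05), and 4 fell, led by P2ry12 (-1.43 ± 0.11). Over all genes 10.7% rose and 14.8% fell. With AE1-329 alone Itgam rose (0.18 ± 0.05), and Cx3cr1 (-0.82 ± 0.10), P2ry12 (-0.59 ± 0.11) and Aif1 (-0.31 ± 0.07) fell. With the agonist on top of Aβ42 Itgam rose (0.22 ± 0.05), and Cx3cr1 (-0.95 ± 0.10) and Aif1 (-0.49 ± 0.07) fell. Whole cultures were measured, so more RNA per cell and more cells of a kind that carry a transcript cannot be told apart. Signal over background is unknown for these values, and a probe set's level was not set against that of another gene.

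**Figure D1:**
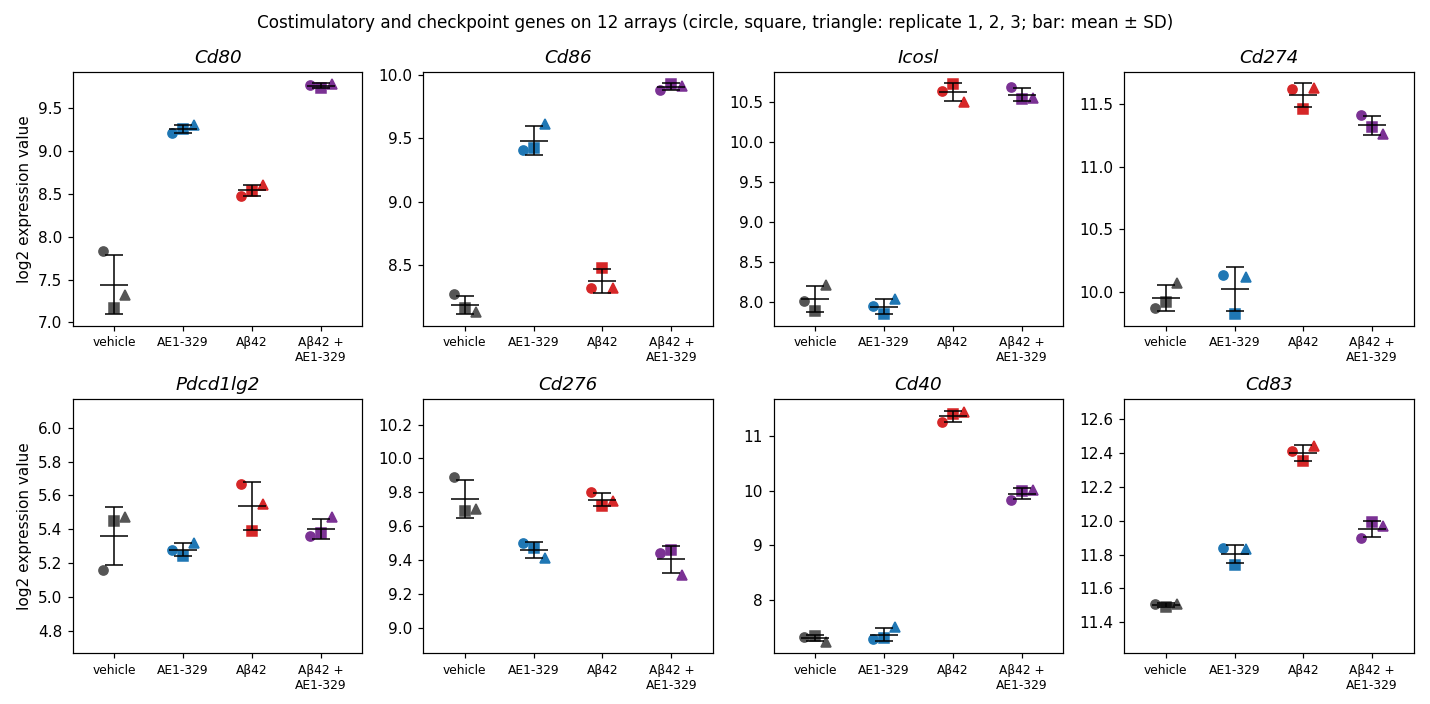
Log2 expression values of the 8 genes on the 12 arrays, by treatment group. Symbols are the replicates, horizontal bars the group means and whiskers 1 SD (n = 3), and each panel has its own axis. Cd80 and Cd86 are highest in the combined treatment, Cd40 and Cd83 in Aβ42 alone.

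Cd80 and Cd86, the ligands of CD28 and CTLA-4, were raised by AE1-329 both without and with Aβ42, and both reached their highest levels in the combined treatment. The vehicle arrays of Cd80 read 7.83, 7.17 and 7.32, those of AE1-329 alone 9.21, 9.26 and 9.30, those of Aβ42 alone 8.48, 8.54 and 8.61, and those of the combination 9.77, 9.74 and 9.79. No 2 of the 4 groups overlapped, and the order from low to high was vehicle, Aβ42, AE1-329 and both. Cd80 rose by 1.82 ± 0.12 with AE1-329 alone (3.54-fold, adjusted p = 9.86e-07), the 7th highest change of all 19938 genes in that comparison. With Aβ42 alone it rose by 1.10 ± 0.12 (adjusted p = 1.53e-05). On top of Aβ42 the agonist raised it by a further 1.23 ± 0.12 (2.34-fold, adjusted p = 3.00e-05), so that it stood 5.03-fold above vehicle. The second Cd80 probe set moved the same way with smaller sizes, by 0.87 ± 0.10 with AE1-329 alone, 0.49 ± 0.10 with Aβ42 alone and 0.76 ± 0.10 with the agonist on top of Aβ42, and each of these passed with p adjusted over all 35556 probe sets.

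Cd86 read 8.27, 8.16 and 8.13 in vehicle, 9.41, 9.42 and 9.61 with AE1-329 alone, 8.32, 8.48 and 8.32 with Aβ42 alone, and 9.88, 9.93 and 9.91 with both. Arrays with the agonist lay above all arrays without it, whereas Aβ42 alone sat barely above vehicle. The rise with AE1-329 alone was 1.29 ± 0.07 (2.45-fold, adjusted p = 1.22e-07), and with AE1-329 on top of Aβ42 it was 1.53 ± 0.07 (2.89-fold, adjusted p = 3.02e-08), the 16th highest of all genes. Aβ42 alone changed Cd86 by 0.19 ± 0.07, which did not pass (adjusted p = 0.0630, and between 0.0153 and 0.231 over the alternatives). It passed without vehicle replicate 1 (0.23, adjusted p = 0.0284) and without AE1-329 alone replicate 3 (0.19, adjusted p = 0.0404), and with both arrays in place it passed among genes above the median level (adjusted p = 0.0362) and after a second quantile normalization (0.23, adjusted p = 0.0153). In cells that received AE1-329, Aβ42 added 0.43 ± 0.07 to Cd86 (adjusted p = 0.000450) and 0.51 ± 0.12 to Cd80 (adjusted p = 0.00838).

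For Cd80 the combined change was smaller than the sum of the separate ones by 0.60 ± 0.17 (interaction -0.60, adjusted p = 0.132), and for Cd86 it was larger by 0.24 ± 0.10 (adjusted p = 0.372), and neither interaction passed. The Cd80 value depended on vehicle replicate 1, whose 7.83 lay above the other vehicle arrays. Without that array the interaction was -0.79 and passed (adjusted p = 0.000523), against adjusted p values up to 0.275 over all alternatives. Within litters it was -0.10 in litter 1, -0.89 in litter 2 and -0.79 in litter 3. Litter 1 holds that vehicle array. At the second Cd80 probe set the interaction was -0.11 ± 0.14 (adjusted p = 0.968).

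Icosl, the ligand of ICOS, rose with Aβ42 and did not pass with the agonist. It read 8.02, 7.89 and 8.21 in vehicle and 7.95, 7.85 and 8.04 with AE1-329 alone, against 10.64, 10.73 and 10.51 with Aβ42 alone and 10.69, 10.54 and 10.56 with both. The 6 arrays with Aβ42 and the 6 without it thus did not overlap, and within each set the agonist's arrays overlapped the others. The rise with Aβ42 alone was 2.59 ± 0.09 (6.01-fold, adjusted p = 1.85e-10), and in AE1-329 treated cells it was 2.65 ± 0.09 (6.28-fold). The agonist changed Icosl by -0.09 ± 0.09 without Aβ42 (95% interval -0.28 to 0.10, adjusted p = 0.660) and by -0.03 ± 0.09 with it (-0.22 to 0.16, adjusted p = 0.917). A change of the size seen for Cd80 or Cd86 lies outside both intervals.

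Of the PD-1 ligands, Cd274 rose with Aβ42 and Pdcd1lg2 did not pass in any comparison. Cd274 read 9.87, 9.92 and 10.07 in vehicle, 10.13, 9.82 and 10.12 with AE1-329 alone, 11.62, 11.46 and 11.63 with Aβ42 alone, and 11.41, 11.32 and 11.26 with both. Vehicle and agonist arrays overlapped, and both Aβ42 groups lay above all of them. It rose by 1.62 ± 0.09 with Aβ42 alone (3.06-fold, adjusted p = 1.65e-08) and by 1.30 ± 0.09 in AE1-329 treated cells (2.47-fold, adjusted p = 1.38e-07). Adding the agonist to Aβ42 changed it by -0.24 ± 0.09, with no overlap between the groups and lower values in 3 of 3 litters (-0.21, -0.14 and -0.37). This did not pass (adjusted p = 0.115, and 0.0371 to 0.341 over the alternatives), although it did when only the 6 arrays of these groups were fitted (adjusted p = 0.0371).

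Pdcd1lg2 was dim throughout, from 5.16 to 5.67 on the 12 arrays, below every array median. It read 5.16, 5.45 and 5.47 in vehicle, 5.28, 5.24 and 5.32 with the agonist, 5.67, 5.39 and 5.55 with Aβ42 and 5.36, 5.38 and 5.47 with both. The groups with Aβ42 alone and vehicle overlapped, and the change was 0.18 ± 0.09 (95% interval -0.01 to 0.36, adjusted p = 0.181). A dim probe set can understate a change.

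Cd276 was the only member that fell with AE1-329 alone. It read 9.89, 9.69 and 9.70 in vehicle, 9.50, 9.47 and 9.41 with the agonist, 9.80, 9.72 and 9.75 with Aβ42, and 9.44, 9.46 and 9.31 with both, so all 6 arrays with the agonist lay below all 6 without it. The fall was small, -0.30 ± 0.07 without Aβ42 (1.23-fold lower, adjusted p = 0.00969) and -0.36 ± 0.07 with it (1.28-fold lower, adjusted p = 0.00329). The first of these did not pass when only vehicle and AE1-329 arrays were fitted (adjusted p = 0.0651, the highest of 0.00373 to 0.0651 over the alternatives). Aβ42 alone changed Cd276 by -0.00 ± 0.07 (95% interval -0.15 to 0.14, adjusted p = 0.986).

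Cd40, the receptor through which T cells activate antigen-presenting cells, had the largest response of the 8 genes to Aβ42 alone, and was lower with the agonist added. Its arrays read 7.31, 7.34 and 7.23 in vehicle, 7.28, 7.29 and 7.50 with AE1-329 alone, 11.26, 11.41 and 11.45 with Aβ42 alone, and 9.84, 9.99 and 10.02 with both. The combined arrays sat between the other Aβ42 group and the arrays without the peptide, with no overlap on either side. Aβ42 alone raised Cd40 17.0-fold and the combination 6.30-fold over vehicle, and the change between these groups was -1.43 in each of the 3 litters (adjusted p = 1.27e-07), the 9th lowest of all genes. AE1-329 alone changed it by 0.06 ± 0.08 (95% interval -0.10 to 0.23, adjusted p = 0.744). The interaction was -1.49 ± 0.11 (adjusted p = 3.69e-05), so the measured effect of the agonist differed with and without the peptide. Without Aβ42 the Cd40 means, 7.29 in vehicle and 7.35 with AE1-329 alone, lay only slightly above the array medians. At such a level a fall with the agonist can be understated, and the part of this in the interaction was not tested.

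Cd83, the maturation marker, moved in opposite directions with the agonist depending on the peptide. It read 11.51, 11.49 and 11.51 in vehicle, 11.84, 11.74 and 11.83 with AE1-329 alone, 12.41, 12.35 and 12.44 with Aβ42 alone, and 11.90, 11.99 and 11.97 with both. No 2 groups overlapped. AE1-329 raised it by 0.30 ± 0.05 in cells without Aβ42 (1.23-fold, adjusted p = 0.00214) and lowered it in cells with Aβ42 (-0.44 ± 0.05, 1.36-fold lower, adjusted p = 9.60e-05). Aβ42 alone raised it by 0.89 ± 0.05 (1.86-fold, adjusted p = 3.05e-08). In AE1-329 treated cells Aβ42 changed it by 0.15 ± 0.05, which did not pass (adjusted p = 0.0584, and 0.0207 to 0.221 over the alternatives) but did among genes above the median level (adjusted p = 0.0246), with a trended and robust prior (adjusted p = 0.0207) and without vehicle replicate 1 (adjusted p = 0.0376). The interaction was -0.74 ± 0.07 (adjusted p = 0.000224) and lay between -0.84 and -0.60 in the 3 litters.

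**Figure D2:**
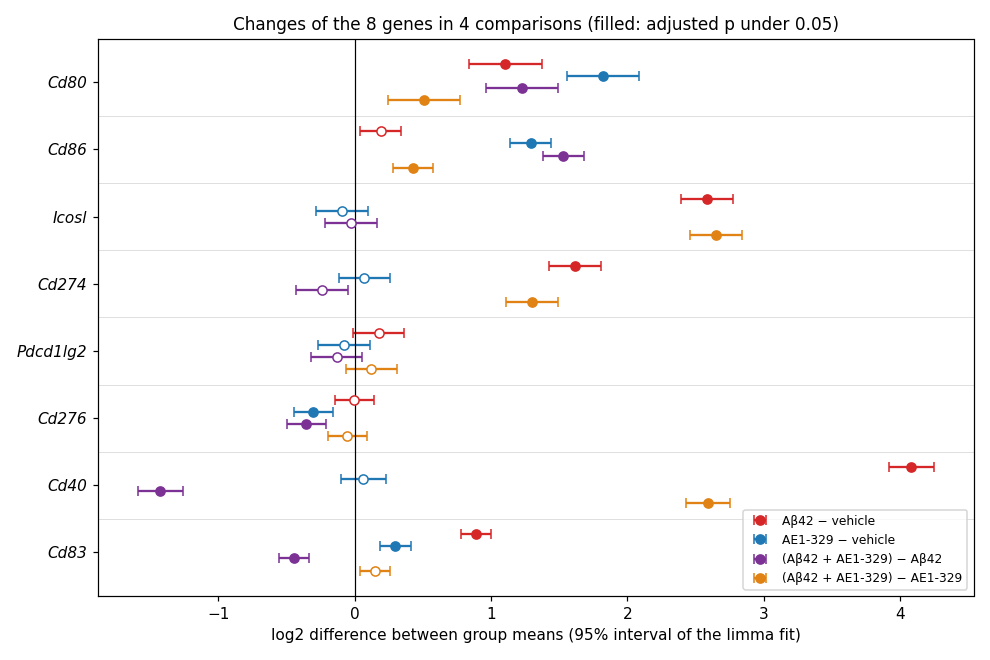
Log2 differences between group means of the 8 genes in 4 comparisons, with 95% intervals of the limma fit. Filled points passed at an adjusted p under 0.05. Icosl and Cd274 passed in both comparisons for Aβ42 and in neither for AE1-329, Cd86 and Cd80 rose with AE1-329 on either background, and the purple point of Cd40 at -1.43 is the largest fall.

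Counted over the 8 members, 5 rose and none fell with Aβ42 alone in the limma test, where 10.7% of all genes rose and 14.8% fell. At an unadjusted p under 0.05 there were 6 higher and 0 lower, Cd86 being the sixth. The members' median change was 1.00, against 0.02 over all genes, and groups did not overlap for 6 members, all higher, where 16.4% of all genes were higher without overlap. With AE1-329 alone 3 rose and 1 fell, where 4.71% of genes rose and 5.45% fell, and the median was 0.07 against -0.01. With the agonist on top of Aβ42 2 rose and 3 fell, where 5.99% rose and 5.04% fell, and the median was -0.19 against -0.02. At an unadjusted p under 0.05 Cd274 made it 4 lower. With Aβ42 in AE1-329 treated cells 5 rose and none fell (9.77% and 12.2% of all genes), with 6 higher and 0 lower at an unadjusted p under 0.05. With the combination against vehicle 6 rose and 1 fell (9.27% and 11.9%). The interaction passed for 2 members, both negative, and for 0.918% of genes with a negative and 1.03% with a positive value.

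**Figure D3:**
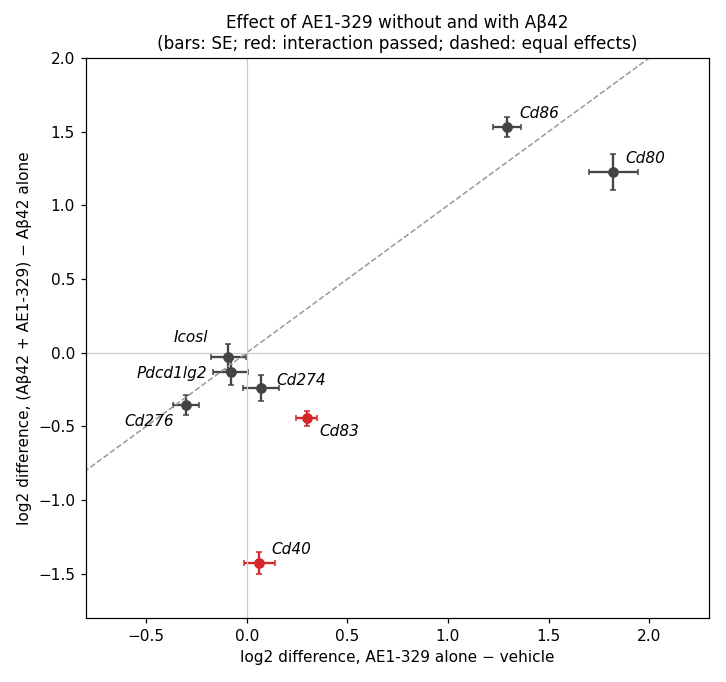
Log2 difference with AE1-329 in cells without Aβ42 (horizontal) and with Aβ42 (vertical) for the 8 genes, with standard errors. The comparisons share no arrays. On the dashed line both effects are equal. Cd40 and Cd83, in red, are the members whose interaction passed, at -1.49 and -0.74.

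The likeness of other genes to a member was measured as the root mean square difference, over the 12 arrays, between their deviations from their vehicle means, for the 5 members whose group means spanned at least 1 unit. Icosl was matched most closely by the chemokine receptor-like Ccrl2 (0.102), by Nfkbia (0.121), the NF-kB inhibitor that NF-kB itself induces, and by the AMP deaminase Ampd3 (0.122). Clone-type and predicted genes, olfactory receptors and microRNAs were ranked but are not named, which passed over the nearest gene to Cd80 and the third nearest to Cd274. Among the named genes Cd274 was closest to the iron transporter Slc11a2 (0.0989), the sialyltransferase St3gal1 (0.115) and Nfkbid (0.124), another IkB family gene. Cd86 was nearest to Clec4n (0.222), which encodes dectin-2, then Apbb3 (0.243) and Carmil1 (0.309), and Cd80 to Carmil1 (0.513), the receptor gene Trem1 (0.532) and ornithine decarboxylase Odc1 (0.539). Cd40 was closest to the niacin receptor Hcar2 (0.357), the adhesion molecule Icam1 (0.361) and Nfkbiz (0.445). In the combined treatment all 3 stood further above vehicle than Cd40 did: Cd40 stood 2.66 above vehicle there after 4.08 with Aβ42 alone, whereas Hcar2 went from 3.93 to 3.10, Icam1 from 3.46 to 2.91 and Nfkbiz from 3.50 to 3.16. Among all 8 members, the closest pairs were Pdcd1lg2 and Cd276 (0.283), Cd83 and Pdcd1lg2 (0.461) and Cd83 and Cd274 (0.605). Members that change little lie close on this measure whatever their pattern. The group means of Pdcd1lg2 spanned 0.25, those of Cd276 0.36 and those of Cd83 0.89. Cd80 and Cd86 differed by 0.624, Cd40 and Icosl by 0.767, and Cd274 and Pdcd1lg2 by 0.989. These are descriptions of 12 arrays and say nothing about shared control.

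Other costimulatory and coinhibitory ligands changed in both directions. Of 19 measured, 7 rose, 1 fell and 11 did not pass with Aβ42 alone, where 10.7% of all genes rose and 14.8% fell. The median change was 0.08 against 0.02 over all genes. Tnfsf9, the gene of 4-1BB ligand, rose from 6.54, 6.46 and 6.70 to 9.58, 9.75 and 9.72, a change of 3.12 ± 0.105 (adjusted p = 1.80e-10). Vsir, which encodes the checkpoint protein VISTA, was the one that fell, from 11.54, 11.76 and 11.78 to 10.61, 10.58 and 10.67 (-1.07 ± 0.06, adjusted p = 4.19e-08), so that 2 inhibitory ligand genes, Cd274 and Vsir, moved in opposite directions. Pvr, a ligand of TIGIT and CD226, rose by 0.85 ± 0.07 (adjusted p = 1.73e-06). With AE1-329 alone 1 rose and 3 fell, where 4.71% of all genes rose and 5.45% fell. Cd48 (-0.61 ± 0.09, adjusted p = 0.000614), Tnfsf9 (-0.54 ± 0.105, adjusted p = 0.00481) and Lgals9, the galectin-9 gene (-0.30 ± 0.06, adjusted p = 0.0101), fell, and Nectin2 rose by 0.25 ± 0.06. On top of Aβ42 1 rose and 5 fell, where 5.99% of all genes rose and 5.04% fell. The smallest p was that of Lgals9 (-0.38 ± 0.06, adjusted p = 0.00190), while Tnfsf9 changed by -0.04 and did not pass. None of the 19 passed the interaction in limma, with 1 higher and 4 lower at an unadjusted p under 0.05. Nectin2, at 0.25 and 0.23, was the highest of the 19 with the agonist without and with Aβ42, against 1.29 and 1.53 for Cd86.

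**Figure D4:**
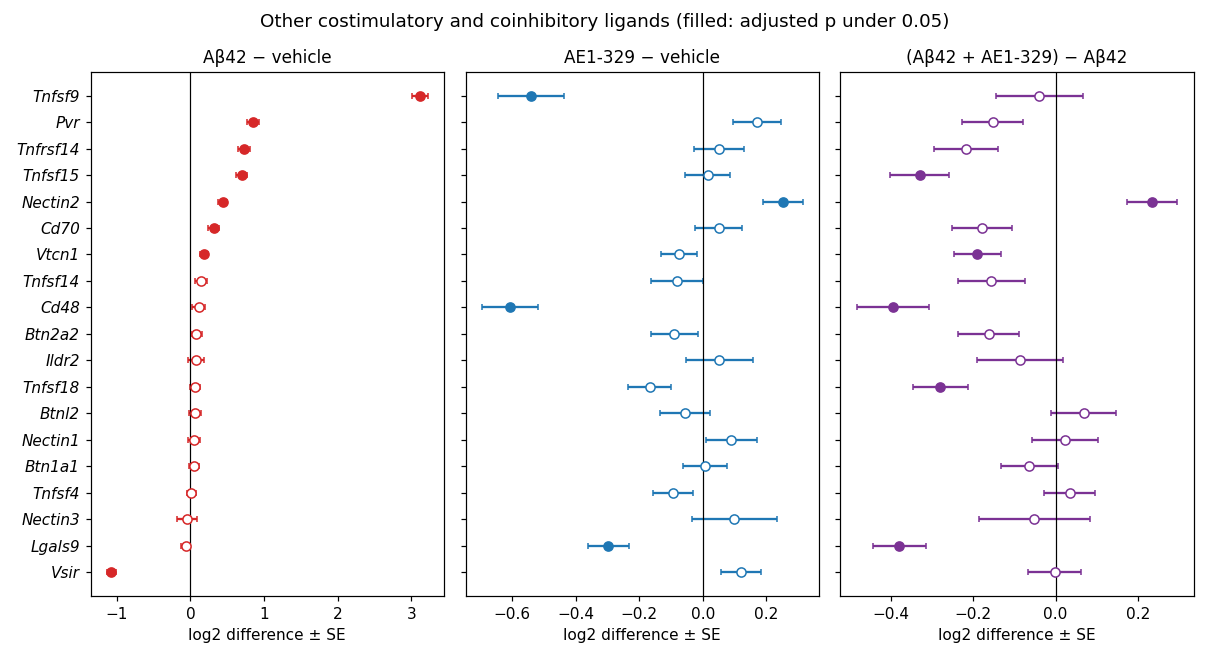
Log2 differences ± SE of 19 other costimulatory and coinhibitory ligand genes with Aβ42 alone, with AE1-329 alone and with AE1-329 on top of Aβ42, each panel on its own scale. Filled points passed at an adjusted p under 0.05. Tnfsf9 at 3.12 and Vsir at -1.07 stand at the ends of the first panel.

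Among genes of the T cell partners of these proteins, 2 of 12 fell and none rose with Aβ42 alone, where 14.8% of all genes fell, and the median was 0.03 against 0.02 over all genes. Cd28, the receptor of CD80 and CD86, read 10.13, 9.98 and 10.09 in vehicle, 9.97, 9.86 and 9.89 with AE1-329, 7.94, 8.02 and 7.90 with Aβ42 and 7.98, 7.86 and 7.88 with both. Its probe set was thus well above the array medians without the peptide and fell by 2.11 ± 0.06 with it (adjusted p = 5.55e-11), with no overlap. Havcr2, the gene of TIM-3, which myeloid cells also carry, fell by 1.38 ± 0.09 with Aβ42 and rose with the agonist, by 0.54 ± 0.09 without Aβ42 and by 0.68 ± 0.09 with it. The receptor genes Ctla4, Icos and Pdcd1 and the CD40 ligand gene Cd40lg had group means from 4.66 to 6.72, below the array medians, and passed in none of the comparisons. Of the T cell markers 5 of 7 lay at or below the highest array median, with list means per array of 6.21 to 6.42 in vehicle and 6.30 to 6.41 with Aβ42 alone. One T cell marker, Cd5, rose with Aβ42 (0.34 ± 0.07).

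Of the 13 measured genes of CD40 signalling and the NF-kB arms, 10 rose and none fell with Aβ42 alone, with a median of 0.52. Over all genes 10.7% rose and 14.8% fell. Among the 10 were Nfkb2 (2.41 ± 0.08), Traf1 (2.52 ± 0.11) and Tnfaip3, which encodes the brake A20 (1.94 ± 0.06). With AE1-329 alone 2 of the 13 rose and 1 fell, where 4.71% of all genes rose and 5.45% fell. Nfkb2 (0.52 ± 0.08) and Map3k14 (0.41 ± 0.05) rose, and Tnfaip3 fell (-0.97 ± 0.06, adjusted p = 2.51e-07). On top of Aβ42, where the agonist lowered Cd40, 3 of the 13 rose and none fell, against 5.99% of all genes higher and 5.04% lower. Traf1, an adaptor of CD40, was higher by 0.73 ± 0.11 (adjusted p = 0.000923). Of the 13 genes from interferon receptors to PD-L1 9 rose and none fell with Aβ42 alone, where 10.7% of all genes rose and 14.8% fell. The smallest p was that of Socs3, a suppressor of cytokine signalling (3.48 ± 0.14, adjusted p = 7.63e-10). Jak2 (1.29 ± 0.10) and Irf1 (1.73 ± 0.10), a direct activator of the Cd274 gene, also rose. With the agonist on top, 4 fell and 3 rose, again against 5.04% of all genes lower and 5.99% higher. Irf1 was 0.71 lower (-0.71 ± 0.10, adjusted p = 0.000488). In the same comparison Cd274 changed by -0.24 and did not pass. Stat3 rose with AE1-329, by 0.72 ± 0.04 without Aβ42 and 0.23 ± 0.04 with it.

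Among regulators of CD86 and PD-L1 protein turnover, Marchf1, whose product takes CD86 and MHC class II off the surface, rose with the agonist alongside Cd86. It read 8.49, 8.45 and 8.53 in vehicle and 9.0, 8.96 and 9.0 with AE1-329 alone (0.50 ± 0.08, adjusted p = 0.000881), and 8.77, 8.60 and 8.66 with Aβ42 and 9.52, 9.20 and 9.41 with both (0.70 ± 0.08, adjusted p = 5.47e-05). The related Marchf8 was lower with AE1-329 alone (-0.34 ± 0.06, adjusted p = 0.00126). Of the 10 genes, 2 rose and 1 fell with AE1-329 alone, where 4.71% of all genes rose and 5.45% fell. With it on top of Aβ42 2 rose and none fell, where 5.99% of all genes rose and 5.04% fell. Of 7 genes of MHC class II antigen presentation, among them Ciita, Cd74 and the protease gene Ctss, none passed with AE1-329 alone in limma. At an unadjusted p under 0.05 there were 1 higher (Ctss) and 0 lower. With the agonist on top of Aβ42 1 of the 7 rose and none fell, and the list median was -0.02, as over all genes. The gene that rose was the class II gene H2-Ab1 (0.55 ± 0.08, adjusted p = 0.000675). H2-Aa changed by -0.03 ± 0.08 and did not pass (adjusted p = 0.894).

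Markers of dendritic cells, which carry several of the members at high levels, moved in part with Aβ42. Of 8 markers 3 rose and none fell, where 10.7% of all genes rose and 14.8% fell. Those that rose were Ccr7, which inflammation also induces in other cells (0.76 ± 0.07), Zbtb46 (0.26 ± 0.07) and Flt3 (0.22 ± 0.07). The mean of the list ran from 6.30 to 6.44 per array in vehicle, from 6.51 to 6.57 with Aβ42 alone, from 6.27 to 6.36 with AE1-329 alone and from 6.41 to 6.57 with both, and 5 of the 8 markers lay at or below the highest array median. With AE1-329 alone 0 of 8 passed, where 4.71% of all genes rose and 5.45% fell. Of 5 B cell markers Ms4a1 rose with Aβ42 (0.27 ± 0.08). Of the brain cell markers, astrocyte Slc1a3 rose (0.52 ± 0.11) and oligodendrocyte Mbp fell (-0.27 ± 0.06) with Aβ42 alone, 0 of 5 neuron markers passed, and of 5 endothelial markers Pecam1, which leukocytes also carry, rose (1.22 ± 0.08) and Flt1 fell (-0.44 ± 0.06) with AE1-329 alone. With the agonist on top of Aβ42, B cell Cd79b fell (-0.31 ± 0.05), Slc1a3 fell (-0.42 ± 0.11), Pecam1 rose (0.90 ± 0.08) and Flt1 fell (-0.47 ± 0.06), and none of the dendritic, T cell, oligodendrocyte or neuron markers passed in limma (0 higher and 2 lower at an unadjusted p under 0.05, 1 each among dendritic and neuron markers). Over all genes 5.99% rose and 5.04% fell with the agonist on top of Aβ42. The part of these other cell types in the members' changes was not tested.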

How the data were processed

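The authors deposited a log2 expression value for every probe set on each Affymetrix Mouse Gene 1.0 ST array. The submitters' processing notes name RMA and Partek 6.5 without saying what each did. The sources used here do not state the genome build, filters or any litter correction, and the scale was read from the values (2.79 to 13.95). Of 35556 probe sets, 21789 carried 1 symbol, and 21698 of these were matched by gene ID to the RefSeq table of GRCm38.p6. The highest-mean probe set was kept, which gave 19938 genes, and no dim gene was left out.

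Group means were fitted with limma 3.58.1 in R 4.3.3 to all 12 arrays (lmFit and eBayes, 8 residual and 4.54 prior degrees of freedom). Each comparison used a two-sided test with Benjamini-Hochberg adjustment over all genes and a threshold of 0.05. The fit was tried on simulated data with independent arrays and the same spread of a gene in every group. Those data lacked the likeness within litters and the wider vehicle spread seen here, so they do not measure the error rates of this fit. Alternatives were a filter on dim genes, averaging a gene's probe sets, a second quantile normalization, array medians subtracted, a prior with trend and robust estimation, fitting just the groups compared, p over all probe sets, the replicate block and leaving out each array.

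Replicate numbers were taken as litters, because the design text ties replicates to litters. Deviations from group means of same-numbered arrays correlated at a mean r of 0.33 over 18 pairs (0.0044 to 0.54, 17 above 0.1), and 12 of 12 arrays correlated best with their own number. Members, lists and motifs were chosen with earlier results of these data known. The rule for named genes took all members, in each list up to 3 genes with the smallest p per comparison, and 3 neighbours by likeness for members whose group means spanned at least 1 log2 unit. Ctla4, Icos, Pdcd1 and Cd40lg were singled out after their values were seen, as was Traf1 for its value with Aβ42 alone. Of the listed genes, 10 had no probe set with 1 symbol and are not analysed here.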

Additional observations from a re-analysis of the deposited data

Results flagged for a closer look

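The change with Aβ42 differed between cells with and without AE1-329 for 2 of the 8 genes, by the interaction term of the limma fit. For Cd40 the interaction was -1.49 (adjusted p = 3.69e-05): the rise with Aβ42 was 4.08 in cells without the agonist and 2.59 in cells with it, and the value was negative in 3 of 3 litters. For Cd83 it was -0.74 (adjusted p = 0.000224): the rise was 0.89 without the agonist and 0.15 with it, again negative in 3 of 3 litters. Cd40 lay only slightly above the array medians without Aβ42, where a fall with the agonist can be understated.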

How the results depend on the processing

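Across 20 alternatives, 944 of 954 member values kept their direction, where called, and their side of the threshold; 9 gained a call, 1 lost it and 0 called values changed sign. The filter on dim genes gave no value for Pdcd1lg2, which it removes. With only the groups compared in the fit, 0 members fell with AE1-329 alone, because Cd276 lost its call. With the litter as a replicate block all 48 member values kept their side, and 5 members were called with Aβ42 alone, 4 with AE1-329 alone, 5 with the agonist on top of Aβ42 and 2 in the interaction. Leaving out each of the 12 arrays gave 5 to 6, 4, 5 and 2 to 3. With 1 array left out, its group keeps 2. Of 4934 values of list genes, 139 lost a call, 30 gained 1 and 0 reversed. Subtracting array medians left the median change of all genes between -0.004 and 0.013, against -0.018 to 0.017 as reported. Precision is limited by 3 arrays a group, and dim probe sets such as Pdcd1lg2 may understate changes.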
